A study of Mus musculus with 8 samples.

Results

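The serine protease genes named *Prss* or *Tmprss*, most of them trypsin-like, were followed in synchronized mouse testes at the pachytene stage. The 56 genes were all protein-coding entries of the expression table whose symbol was Prss and a number, or Tmprss and a number with or without a letter, out of 22046 protein-coding genes. They comprised 39 *Prss* and 17 *Tmprss* genes, and the rule uses symbols and gene type only, no measured value. Of these, 16 are known as testis or sperm proteases and are called testis members here, and the other 40 are called other members. Bulk RNA-seq of the whole testis was made for 4 control mice (*Sync-Spdya* fl/fl, replicates 1 to 4) and for 4 cKO mice (*Sync-Spdya* cKO, replicates 1 to 4), each giving 1 library. Both groups carried the floxed *Spdya* alleles, were synchronized by blocking and then restoring retinoic acid (RA), received tamoxifen at RA7.5 and again at RA8.5 by the sample labels, and were collected at RA11.5, that is, 11.5 days after RA was given back. Only the cKO mice carried *Ddx4*-CreERT2, a tamoxifen-activated recombinase driven by a germ cell promoter, so recombination was directed to germ cells by design, while the RNA came from all cells of the testis. *Spdya* encodes Speedy A, an activator of CDK2. The study asked whether silencing of the sex chromosomes is disturbed without it, and no member lies on the X or Y chromosome.

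Trypsin-like serine proteases cut proteins with a triad of histidine, aspartate and serine, and most are made as inactive precursors. The *Prss* genes mostly encode secreted or lipid-anchored enzymes, and most *Tmprss* genes encode enzymes held in the membrane by an N-terminal anchor. In the testis, members of the family are made in spermatocytes and spermatids and act on the sperm surface and in the acrosome, and several members have lost catalytic residues and work, if at all, as pseudoproteases.

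In trypsin-like enzymes the serine that makes the cut lies in the conserved order glycine-aspartate-serine-glycine-glycine. Read in frame from the longest GENCODE vM21 coding sequence of each gene, this motif was found in 42 of the 56 members, and in 46 when alanine was allowed in its first place and serine or alanine in its last. The sequences below show 27 bases around it in a selection of members, with the codon of the active serine, or the codon in its place, in capitals. Trypsin 1 (*Prss1*) is shown as the reference enzyme of the family.
Prss1: tgccagggtgacTCTggtggccctgtg
Prss42: tgccagggagatTCTggaggcccgatg
Prss44: tgccagggagatTCTgggggccccctg
Prss45: tgctatggagacCCCggggggccattg
Prss41: tgcagtggtgacTCAggaggacccttg
Tmprss12: tgcaggggtgacAGCgggggaccacta
Prss55: tgccagggtgacAGTgggggaccgctt
*Prss45* carried a proline codon (CCC) in place of the serine codon, with the glycine codons around it kept. Of the 6 testis members in 1 run on chromosome 9, only *Prss42* and *Prss44* held the motif, and *Prss43*, *Prss45*, *Prss46* and *Prss50* did not. The motif occurred in 43 copies, because *Tmprss9* has 2, and the serine codon began with TC in 34 of them and with AG in 9. The 27 bases were interrupted by an intron in 42 copies and lay within 1 exon only in *Prss12*. On GRCm38 the stretches spanned chr9:110800966-110803015 for *Prss42*, chr9:110816566-110817109 for *Prss44* and chr9:110840545-110840865 for *Prss45*, all on the plus strand and with the intron inside. The motif was in 10 of the 17 members that passed the expression filter described below and in 32 of the 39 that did not.

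The libraries held 13978342 to 17867570 fragments on genes in the controls and 15494873 to 19583091 in the cKO testes. Control replicate 1 stood apart, with 0.464% of its fragments on mitochondrial genes against 2.20% to 3.74% in the other 7 libraries, and log2 fold changes of members that move by over 1.5 times without it are given both ways. *Spdya* had 20.8, 21.0, 23.8 and 19.7 FPKM (fragments per kilobase of gene length, scaled to the depth of the library by the sequencing company) in the controls and 30.5, 22.2, 26.1 and 17.7 FPKM in the cKO libraries, so the whole-gene level did not separate the labels. This value counts fragments over the whole gene, not over the floxed exon. Of 8 spermatocyte markers 7 had a mean above 1 FPKM (summed FPKM of all 8 1058 to 1613 in controls and 837 to 1300 in cKO), with *Hist1h1t* the exception at a mean of 0.473 FPKM. Of 8 spermatid markers 7 had a mean below 1 FPKM, *Prm1*, *Prm2*, *Tnp1* and *Tnp2* among them at 0 to 0.580 FPKM in every library, with *Tssk6* the exception at 0.823 to 2.74 FPKM. In whole-testis RNA, fewer cells of a type and less RNA per cell cannot be told apart. Where nothing says otherwise, replicate error is that between mice.

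The family divided into a minority of expressed genes and a majority that was near silent. No fragment was counted in any library for 9 members, 29 members had a mean below 0.1 FPKM over the 8 libraries (those 9 included), 9 lay between 0.1 and 1 FPKM, and 18 reached 1 FPKM. The 4 members above 10 FPKM were *Prss35*, *Prss50*, *Tmprss12* and *Prss45*. *Prss35* alone made up 27.5% of the family's summed FPKM and these 4 together 66.2%. The summed FPKM of the testis members was 93.3 ± 29.4 in the controls (SD, n = 4) and 67.1 ± 8.35 in the cKO libraries (SD, n = 4), and that of the other members was 66.7 ± 5.79 and 72.8 ± 5.77. Much of the gap in the testis members came from *Prss50*, at means of 37.2 and 18.0 FPKM, and without it the rest of its run on chromosome 9 summed to 35.1 ± 4.50 and 31.5 ± 5.80 FPKM (SD, n = 4 each).

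**Figure D1:**
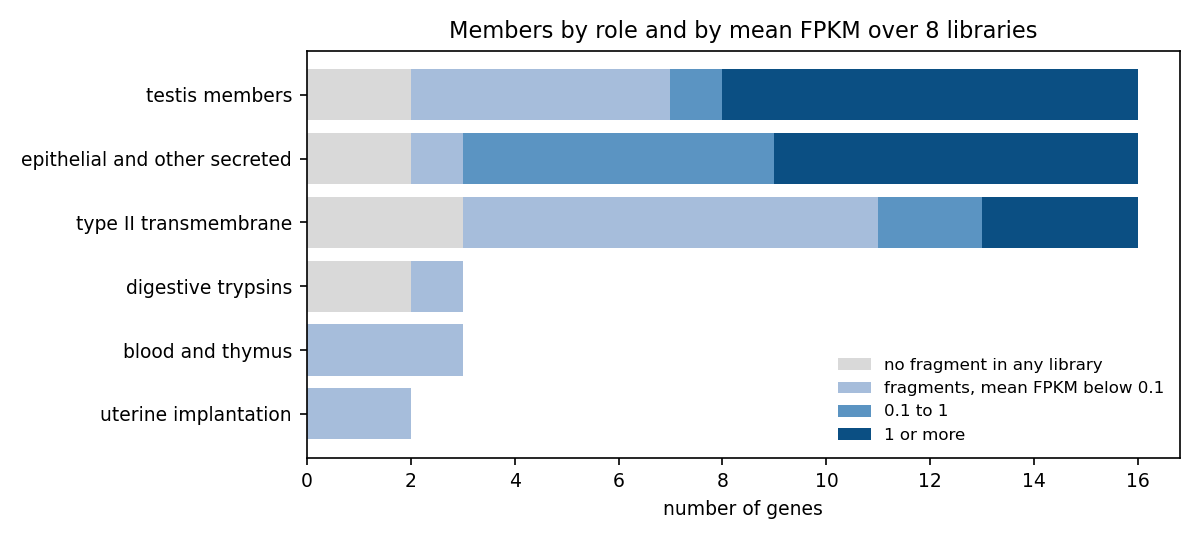
Number of members (horizontal axis, genes) in each role, divided by mean FPKM over the 8 libraries. Of the 16 testis members 8 reached 1 FPKM, whereas no digestive trypsin, blood and thymus or uterine member reached 0.1 FPKM.

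The testis members of 2 chromosomal runs differed in level. The run on chromosome 9, *Prss42*, *Prss44*, *Prss43*, *Prss45*, *Prss46* and *Prss50* in this order on the plus strand (chr9:110798166-110864629, GRCm38), was expressed throughout, with means of 1.86 to 27.6 FPKM. The run on chromosome 14, *Prss55*, *Prss51* and *Prss52*, was near silent, with at most 2 fragments for a gene in all 8 libraries together. PRSS55 is a lipid-anchored sperm protease required for sperm to pass into the oviduct. *Prss55* had 0 fragments in every library, which allows up to 0.110 to 0.163 FPKM by a floor of 3 fragments per library, for counting error only. *Prss39* (TESP1), an acrosomal protease, was also at 0 in every library, allowing up to 0.116 to 0.172 FPKM.

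The other untested testis members were counted at a few fragments per library. *Prss37*, a pseudoprotease needed for the maturation of the sperm protein ADAM3, had 0, 2, 2 and 1 fragments in the controls and 1, 0, 0 and 0 in the cKO libraries. *Prss54* had 4, 1, 0 and 1 fragments in the controls and 1, 0, 0 and 0 in the cKO libraries. *Prss40* (TESP2), another acrosomal protease, had 2, 4, 5 and 1 fragments in the controls and 3, 3, 0 and 3 in the cKO libraries. *Prss21* (testisin), a lipid-anchored sperm protease, reached 0.28, 0.35, 0.23 and 0.06 FPKM in the controls and 0.14, 0.06, 0.27 and 0.05 FPKM in the cKO libraries. *Prss51* had 0 fragments in all controls and 0, 2, 0 and 0 in the cKO libraries, and *Prss52* had 0, 0, 1 and 1 in the controls and 0 in all cKO libraries. At these counts a difference between the groups was not detectable.

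**Figure D2:**
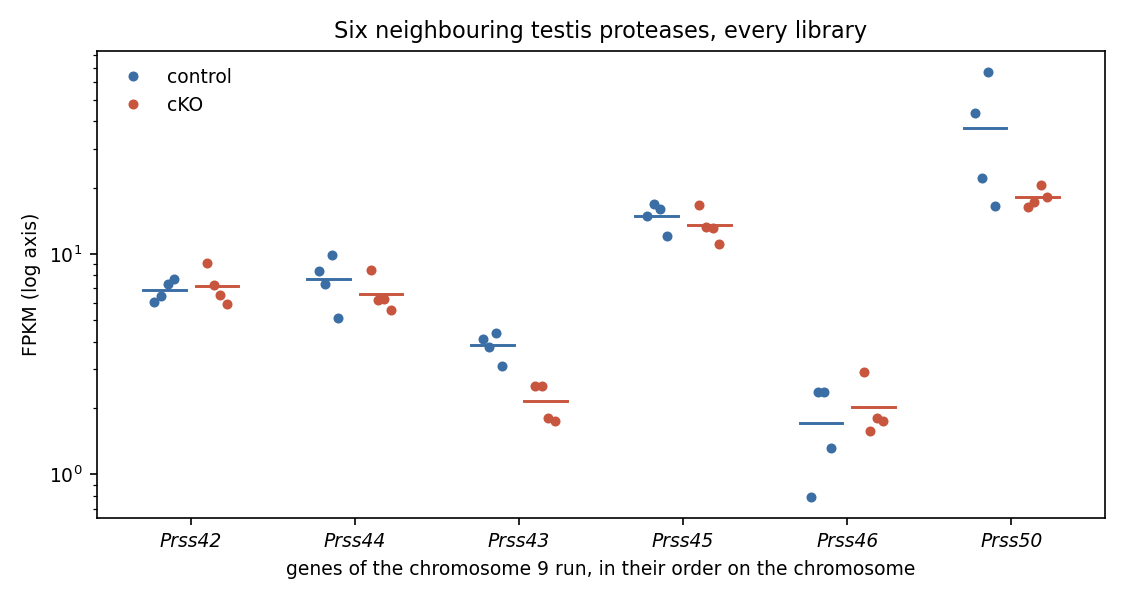
FPKM (vertical log axis) of the 6 testis proteases of the chromosome 9 run, in their order on the chromosome, with 1 point per library (blue control, red cKO) and a bar at the group mean. *Prss43* is the member whose groups do not overlap, and *Prss50* has 2 control libraries far above the other 6.

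Genes were tested when their mean FPKM was above 1 in both groups, which 17 members passed, 8 testis and 9 other members. The test was limma on log2(FPKM + 0.1) across 12141 protein-coding genes, with p-values adjusted by Benjamini-Hochberg over all of them. Log2 fold changes are cKO minus control, and the added 0.1 shrinks those of low genes. No member was called differentially expressed (more than a 2-fold difference at an adjusted p below 0.05), where 0.0165% of all genes were, 2 of 12141. The paper reported more genes at the same thresholds with a count-based test. Here limma with voom on fragments recovered from the FPKM also called 2 genes in all, and 0 members. The absence of calls is therefore that of the fits run here. At an unadjusted limma p below 0.05 there were 4 members of 17, all lower in the cKO libraries, against 10.9% of all genes in either direction, 5.0% lower and 5.89% higher. The groups did not overlap in 2 members, *Prss43* and *Prss48*, both lower in the cKO libraries, against 6.24% of all genes in either direction, 2.59% lower and 3.64% higher. The median log2 fold change was -0.17 over the 8 testis members and 0.16 over the 9 other members, and 0.01 over all genes. Among the controls, library medians of the deviation from the control mean had an SD of 0.247 for testis and 0.105 for other members. The testis list was chosen with earlier results of these data known, so these medians are a description.

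*Prss43* had the smallest p of the family. It encodes a testis serine protease of the chromosome 9 run (ENSMUSG00000058398, chr9:110826690-110831839). Its levels were 4.13, 3.77, 4.40 and 3.09 FPKM in the controls and 2.53, 2.53, 1.81 and 1.75 FPKM in the cKO libraries, so that every cKO library lay below every control. The means were 3.85 ± 0.565 and 2.15 ± 0.434 FPKM (SD, n = 4 each). On the log2 scale the groups differed by -0.82 (standard error 0.17, limma adjusted p = 0.150), which placed *Prss43* at rank 60 of 12141 genes by p and short of the threshold. The adjusted p was 0.0279 to 0.235 over the other settings of the fit, and the value below 0.05 came from weighting the libraries by their quality, a setting under which 454 genes rather than 2 passed the adjusted threshold. With 1 library left out the log2 fold change ran from -0.92 to -0.73 and the limma adjusted p from 0.0936 (control replicate 4) to 0.547 (cKO replicate 4), and without control replicate 1 they were -0.78 and 0.0946.

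Within the run, *Prss43* took 12.1%, 10.2%, 11.03% and 10.6% of the FPKM summed over it, *Prss42*, *Prss44*, *Prss45* and *Prss46* in the controls. In the cKO libraries it took 6.37%, 8.23%, 6.14% and 6.69%, below every control. This share was computed after the levels were seen and carries no test. Spermatocyte markers were also lower in part: *Ldhc*, a lactate dehydrogenase of spermatocytes, had 622, 478, 631 and 362 FPKM in the controls and 388, 334, 282 and 248 FPKM in the cKO libraries (log2 fold change -0.73, limma adjusted p = 0.287). A log2 fold change below 0 was found for 7 of 7 tested spermatocyte markers, where 48.0% of all genes had one. These ran from -0.73 for *Ldhc* to -0.02 for *Pgk2*. An unadjusted limma p below 0.05 was found for 2 of them, where 10.9% of all genes had one. The untested *Hist1h1t* went the other way, with means of 0.279 and 0.667 FPKM. The part of these markers in the result was not tested.

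*Prss50* (testes-specific protease 50), which has a threonine where active members have the serine, varied more among the controls than between the groups. It had 43.4, 22.0, 66.8 and 16.6 FPKM in the controls and 16.4, 17.1, 20.6 and 18.0 FPKM in the cKO libraries. Control replicates 1 and 3 were high, while control replicates 2 and 4 lay close to the cKO range and the groups overlapped. The highest control was 4.04 times the lowest, a ratio reached by 206 of the 12141 tested genes (1.70%), against 1.26 times in the cKO libraries. On the log2 scale the fold change of *Prss50* was -0.83 (standard error 0.37, limma adjusted p = 0.451). Leaving out control replicate 1 gave -0.69 (limma adjusted p = 0.419), and leaving out control replicate 3 gave -0.48 (limma adjusted p = 0.745).

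The same control libraries were high for a second member. *Tmprss13*, an epithelial membrane protease on another part of chromosome 9, had 2.59, 1.73, 3.47 and 0.83 FPKM in the controls and 1.16, 0.96, 1.21 and 0.54 FPKM in the cKO libraries. Its cKO mean of 0.969 FPKM kept it out of the test. In a fit of genes with a mean above 0.1 FPKM over all libraries the log2 fold change of *Tmprss13* was -0.96, with a standard error of 0.39 and a limma adjusted p of 0.416, and the exact two-sided permutation test over the 70 assignments of libraries gave p = 0.114, where the smallest p that 4 against 4 allows is 0.0286.

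Control replicates 1 and 3 were also the highest libraries for *Rec8*, *Ctcfl*, *Tex11*, *Hey1* and *Nudt17*, genes picked after their values were seen. The share of all tested genes with this order was not counted. *Rec8*, a meiotic cohesin subunit, had 32.9, 16.2, 35.6 and 16.7 FPKM in the controls and 13.7, 17.7, 17.3 and 16.7 FPKM in the cKO libraries. *Ctcfl*, the germ cell paralogue of the DNA-binding protein CTCF, had 5.27, 3.70, 9.98 and 4.15 FPKM in the controls and 2.90, 3.91, 4.00 and 3.53 FPKM in the cKO libraries. *Stra8*, which starts meiosis in response to RA, followed another order in the controls, with 5.92, 4.53, 19.8 and 12.9 FPKM, and had 2.03, 3.93, 2.93 and 4.70 FPKM in the cKO libraries. What these libraries share was not tested.

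**Figure D3:**
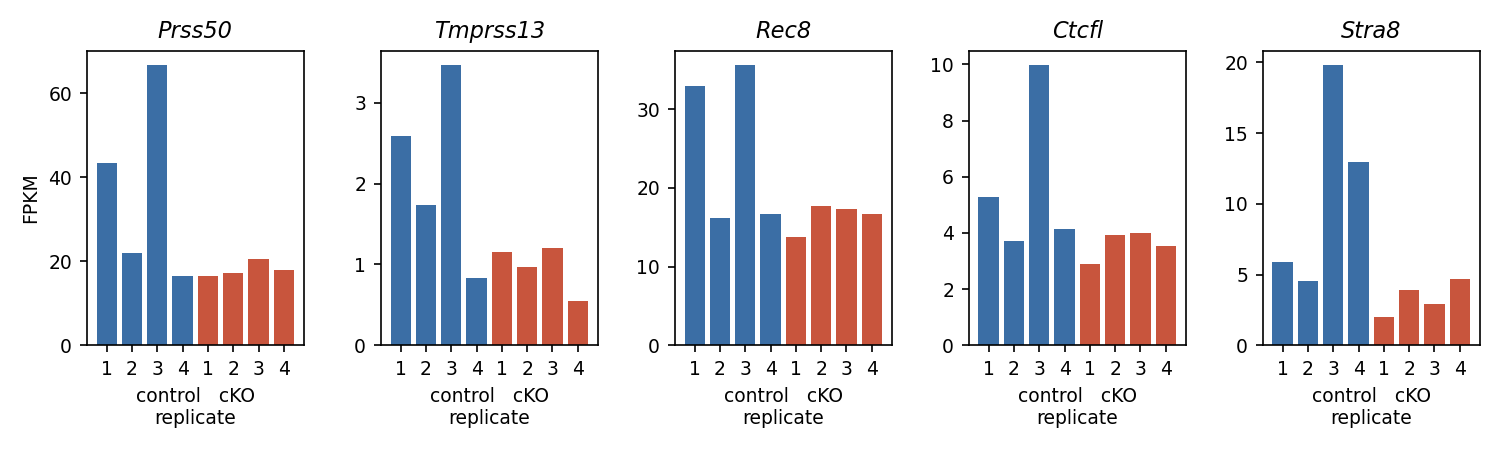
FPKM (vertical axes, from 0, a separate scale per gene) of *Prss50*, *Tmprss13*, *Rec8*, *Ctcfl* and *Stra8* in each library, controls 1 to 4 in blue and cKO 1 to 4 in red. Control replicates 1 and 3 are the highest bars for the first 4 genes, and control replicates 3 and 4 for *Stra8*.

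The promoter of *Prss50* is printed because this gene had the widest ratio among the controls of the 17 tested members. RefSeq (GRCm38.p6) gave promoters of 300 bases, 250 before and 50 after the start, for 41 of the 56 members. That of *Prss50* spans chr9:110857714-110858013 on the plus strand, and its capitals mark, in order, CNCCTCAG on the reverse strand, the element bound by STRA8, and AGNGGGCGC, a core of the element bound by CTCF and CTCFL.
Prss50: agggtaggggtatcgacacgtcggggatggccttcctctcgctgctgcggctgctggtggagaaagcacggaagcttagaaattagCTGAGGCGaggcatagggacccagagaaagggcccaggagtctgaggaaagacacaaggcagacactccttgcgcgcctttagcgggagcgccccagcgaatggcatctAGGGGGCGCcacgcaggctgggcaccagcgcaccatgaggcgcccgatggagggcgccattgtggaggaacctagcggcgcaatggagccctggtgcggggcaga
Searched on both strands, CNCCTCAG was in 7.94% of all 32851 promoters and in 4 of the 41 members with one, *Prss38*, *Prss46*, *Prss47* and *Prss50*. Here and below the share is per promoter, while a member counts once if any of its promoters matches. The 41 members had 50 promoters, so the units differ. AGNGGGCGC was in 2.88% of all promoters and in 3 members, all of them testis members, shown here with 10 bases on each side.
Prss50: aatggcatctAGGGGGCGCcacgcaggct
Prss41: cctgtcccctAGAGGGCGCcactaagcct
Prss21: tcttcttcagAGTGGGCGCgggcctggcg
The windows lie at chr9:110857899-110857927 on the plus strand, chr17:23844186-23844214 on the minus strand and chr17:23868022-23868050 on the plus strand. A match of letters is a description and not evidence of binding. CNGTTG, the MYB element, was in 35.0% of all promoters and in 20 of the 41 members, and the cyclic AMP element TGACGTCA was in 1.79% and in 0 of 41.

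None of the other 6 tested testis members had an unadjusted p below 0.05. *Tmprss12*, a membrane protease of sperm needed for male fertility, had 16.2, 18.6, 20.3 and 15.6 FPKM in the controls and 18.8, 14.7, 13.4 and 11.9 FPKM in the cKO libraries. Its log2 fold change was -0.28 (95% interval -0.61 to 0.06, limma adjusted p = 0.557). *Prss45*, with the proline codon, had 14.9, 16.9, 16.0 and 12.01 FPKM in the controls and 16.7, 13.3, 13.1 and 11.1 FPKM in the cKO libraries, a log2 fold change of -0.14 (-0.47 to 0.19). In both genes the groups overlapped, and the lowest library was a cKO one.

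*Prss44* had 8.39, 7.28, 9.90 and 5.13 FPKM in the controls and 8.43, 6.16, 6.23 and 5.59 FPKM in the cKO libraries, and its log2 fold change was -0.19 (-0.64 to 0.26). *Prss42*, which like *Prss44* keeps the serine motif, had 6.07, 6.48, 7.27 and 7.70 FPKM in the controls and 9.12, 7.20, 6.51 and 5.91 FPKM in the cKO libraries, a log2 fold change of 0.05 (-0.27 to 0.37), and -0.0083 without control replicate 1. The groups overlapped in both, and none of these intervals included a 2-fold change in either direction.

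*Prss46* was the lowest of the run, with 0.79, 2.38, 2.38 and 1.31 FPKM in the controls and 2.91, 1.58, 1.81 and 1.75 FPKM in the cKO libraries. Its log2 fold change of 0.30 (-0.45 to 1.05) was 0.0007 without control replicate 1. *Prss41*, a testis protease on chromosome 17, had 2.19, 2.71, 4.82 and 1.89 FPKM in the controls and 3.34, 2.42, 2.58 and 2.30 FPKM in the cKO libraries, a log2 fold change of -0.05 (-0.63 to 0.54), and -0.15 without control replicate 1. It was the only 1 of 7 neighbours on chromosome 17 (*Prss33*, *Prss41*, *Prss32*, *Prss21*, *Prss30*, *Prss22* and *Prss27*) that passed the filter. *Prss46* rested on 14 to 76 fragments per library and *Prss41* on 76 to 199.

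The highest member was not a testis protease. *Prss35*, a catalytically inactive relative without the serine motif, known from ovary and other reproductive tissues, had 33.6, 35.7, 35.7 and 47.6 FPKM in the controls and 37.4, 44.6, 43.8 and 51.2 FPKM in the cKO libraries. Its log2 fold change was 0.22 (95% interval -0.09 to 0.53, limma adjusted p = 0.628). In the same direction, *Acta2* of peritubular cells had 48.7, 36.0, 52.5 and 60.8 FPKM in the controls and 63.1, 64.6, 76.4 and 87.1 FPKM in the cKO libraries, and an unadjusted p below 0.05 was reached, higher each time, by 2 of 4 macrophage, 2 of 2 endothelial, 1 of 2 peritubular, 1 of 2 Leydig and 0 of 6 Sertoli markers tested, against 5.89% of all genes. Their part in the result was not tested.

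The level of *Prss12* (neurotrypsin, which cleaves agrin at synapses) was 4.31, 4.11, 3.00 and 6.43 FPKM in the controls and 3.79, 4.67, 5.90 and 6.86 FPKM in the cKO libraries. *Prss36* (polyserase-2), a secreted protein of several protease domains, had 7.77, 6.42, 5.74 and 5.25 FPKM in the controls and 6.44, 7.95, 6.39 and 7.31 FPKM in the cKO libraries. Both overlapped between the groups, with log2 fold changes of 0.26 (-0.28 to 0.80) and 0.16 (-0.14 to 0.47), the latter 0.27 without control replicate 1.

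*Prss48* was the other member whose groups did not overlap. It had 4.99, 4.07, 3.98 and 4.12 FPKM in the controls and 3.42, 3.83, 2.56 and 3.35 FPKM in the cKO libraries, with a gap of under 0.2 FPKM between the lowest control and the highest cKO library. The difference on the log2 scale was -0.38 (standard error 0.14, limma adjusted p = 0.396), and -0.31 without control replicate 1, which was the highest. *Prss48* overlaps *Sh3d19* on the opposite strand, and because the use of strand in counting is not given in the sources used here, their fragments cannot be told apart where they overlap.

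*Prss58*, a trypsin-like gene on chromosome 6, had 1.17, 2.03, 2.48 and 1.62 FPKM in the controls and 1.48, 1.34, 0.97 and 0.90 FPKM in the cKO libraries. On the log2 scale the cKO libraries differed by -0.58 (standard error 0.25, limma adjusted p = 0.449) on 15 to 38 fragments per library. Control replicate 1 lay inside the cKO range, and the other 3 controls lay above it. Without that library the log2 fold change was -0.76 (limma adjusted p = 0.163).

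The remaining tested members lay between 0.68 and 3.65 FPKM. *Prss38* had 3.01, 2.22, 1.85 and 2.60 FPKM in the controls and 3.65, 2.27, 3.01 and 2.32 FPKM in the cKO libraries. *Prss47* had 0.68, 0.99, 1.52 and 1.89 FPKM in the controls and 1.38, 0.97, 1.06 and 0.77 FPKM in the cKO libraries. Neither separated the groups, with log2 fold changes of 0.20 (-0.24 to 0.64) and -0.19 (-0.87 to 0.48), which were 0.31 and -0.43 without control replicate 1. *Prss38* shares its locus with an antisense gene of 2.03 FPKM.

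Among the membrane-anchored members, *Tmprss5* (spinesin), a protease of the nervous system, had 1.62, 2.11, 0.94 and 1.76 FPKM in the controls and 2.28, 1.99, 1.51 and 2.62 FPKM in the cKO libraries. *Tmprss9* (polyserase-1), which carries several protease domains, had 1.66, 1.49, 1.39 and 1.12 FPKM in the controls and 1.60, 1.46, 1.59 and 1.33 FPKM in the cKO libraries. The groups overlapped in both, with log2 fold changes of 0.39 (-0.17 to 0.95) and 0.08 (-0.29 to 0.45), the latter 0.16 without control replicate 1. *Tmprss9* overlaps *Timm13* (36.2 FPKM) on the opposite strand, with the same limit as above.

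**Figure D4:**
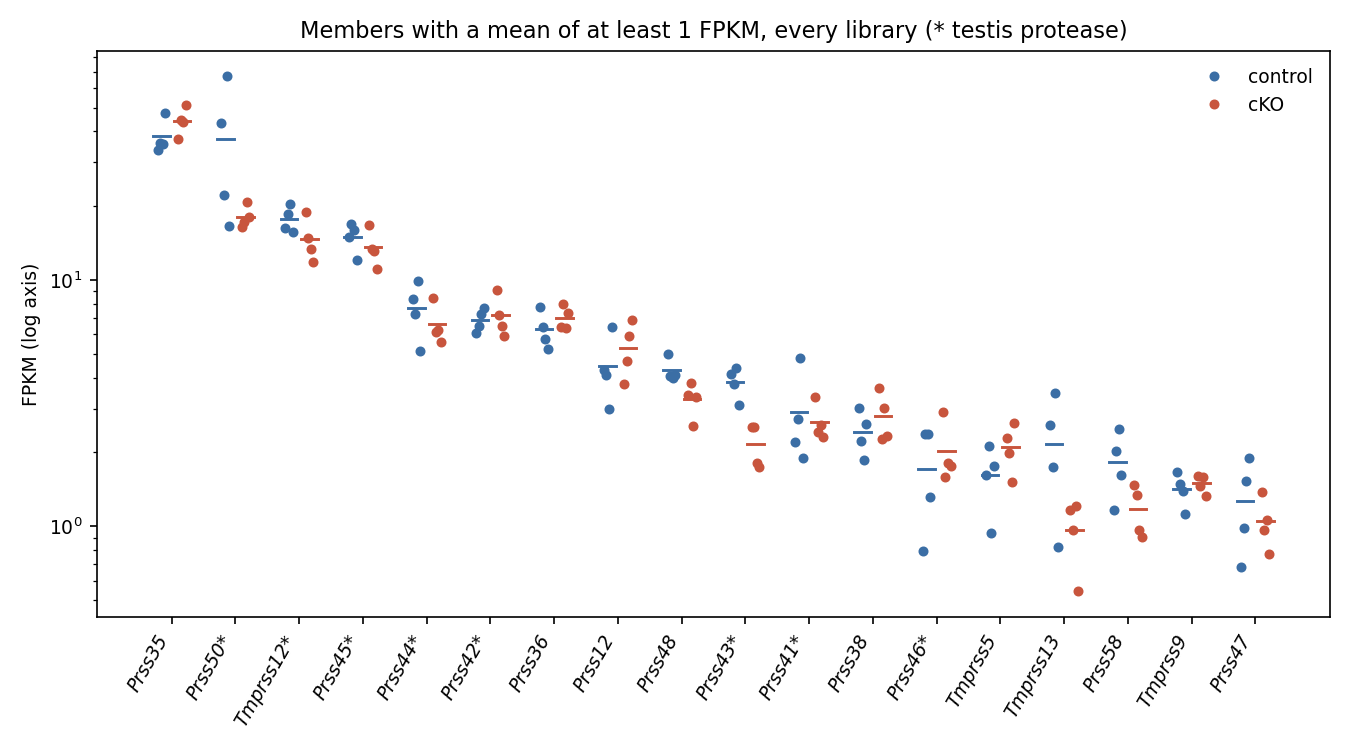
FPKM (vertical log axis) of the 18 members with a mean of at least 1 FPKM, ordered by mean, with 1 point per library (blue control, red cKO), a bar at each group mean and a star on testis proteases. Levels fall from *Prss35* at a mean of 41.2 FPKM to *Prss47*, and neighbours in this order overlap in range except *Prss45* and *Prss44*.

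In the order of levels over all 8 libraries, *Prss35* was followed by *Prss50*, *Tmprss12*, *Prss45*, *Prss44*, *Prss42*, *Prss36*, *Prss12*, *Prss48* and *Prss43*. The ranges of neighbours overlapped throughout the 18 genes with 1 exception. The lowest *Prss45* library, at 11.1 FPKM, was above the highest *Prss44* library, at 9.90 FPKM. FPKM is per gene length, so this order rests on the deposited lengths, which were not checked against the transcripts in use. *Prss45* had 2338 fragments in all 8 libraries on a length of 1235 bases, and *Prss44* had 3327 on 3530 bases.

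**Figure D5:**
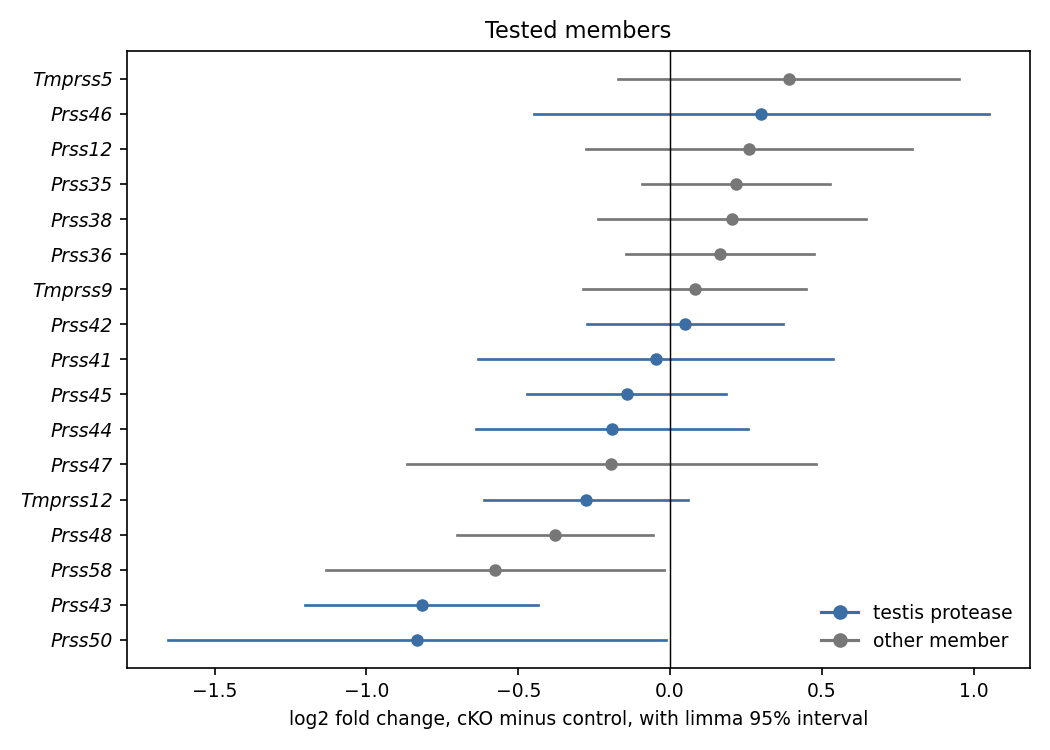
Log2 fold change (horizontal axis, cKO minus control) of the 17 tested members with 95% limma intervals, testis proteases in blue and other members in grey. The intervals of *Prss43*, *Prss50*, *Prss58* and *Prss48* lie below 0 without adjustment for the 12141 genes tested.

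Of the members below the filter other than *Tmprss13*, 2 are given here by level. *Prss32* was named after its values were seen: it had 0, 2, 4 and 5 fragments in the controls and 22, 3, 9 and 10 in the cKO libraries. It overlaps the more abundant *Prss41* on the opposite strand. *Prss23*, a secreted relative of *Prss35*, had 0.49, 0.54, 0.49 and 0.47 FPKM in the controls and 0.74, 0.57, 0.63 and 0.86 FPKM in the cKO libraries, also named after its values were seen, and every cKO library was above every control. Of the genes with a mean above 0.1 FPKM, 6.32% had groups without overlap. In the fit of those genes the log2 fold change was 1.14 for *Prss32* (limma adjusted p = 0.389). For *Prss23* it was 0.41 (limma adjusted p = 0.457). Of the 7 *Tmprss11* genes on chromosome 5, proteases of surface epithelia, none had more than 16 fragments in all 8 libraries. The trypsins *Prss1*, *Prss2* and *Prss3* of the pancreas had at most 2 fragments, the blood and thymus members *Prss16*, *Prss34* and *Prss57* had 4 to 41, and the implantation proteases *Prss28* and *Prss29* of the uterus had 1 and 2. Of the mast cell markers, *Cpa3* was at 0 in 7 of the 8 libraries, *Mcpt4* and *Tpsb2* had 0 to 4 fragments in a library, and *Kit*, which spermatogonia also express, had 8.30 to 10.9 FPKM.

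Relatives and inhibitors of the family gave 10 tested genes of 15 in the list. Of these 2 had an unadjusted p below 0.05, both higher, against 10.9% of all genes, and 0 passed the adjusted threshold, with a median log2 fold change of 0.01. The list was chosen with earlier results of these data known, so its counts are a description. *Corin*, a membrane protease that activates natriuretic peptide, had 4.04, 3.63, 2.93 and 2.88 FPKM in the controls and 5.61, 5.20, 4.65 and 5.53 FPKM in the cKO libraries, with no overlap and a log2 fold change of 0.63 (limma adjusted p = 0.150). *Acr*, the acrosomal protease acrosin, had 13.8, 18.97, 17.7 and 13.0 FPKM in the controls and 16.9, 14.7, 14.7 and 11.2 FPKM in the cKO libraries, and overlapped.

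Of 15 genes of the route by which ADAM3 matures on sperm, in which PRSS37 takes part, 12 were tested. An unadjusted p below 0.05 was found for 4 lower and 1 higher gene, against 5.0% and 5.89% of all genes, 0 passed the adjusted threshold, and the median log2 fold change was -0.27. This list was also chosen with earlier results of these data known, so its counts are a description and no test of the route. *Adam3* itself had 4.25, 5.53, 8.79 and 5.68 FPKM in the controls and 3.10, 3.81, 2.68 and 2.28 FPKM in the cKO libraries, without overlap (log2 fold change -0.98, limma adjusted p = 0.172). Of the spermatocyte markers, *Ldhc* and *Piwil1* had the largest falls, at -0.73 and -0.40 (limma adjusted p = 0.287 and 0.442). The others tested were *Hspa2* at -0.30, *Ovol1* at -0.19, *Sycp3* at -0.18, *Sycp1* at -0.09 and *Pgk2* at -0.02. The untested *Hist1h1t* was higher. The part of these markers in the result was not tested. *Ace*, the higher one, had 1.69, 2.81, 1.85 and 3.20 FPKM in the controls and 3.91, 3.68, 3.58 and 4.80 FPKM in the cKO libraries, also without overlap (log2 fold change 0.76, limma adjusted p = 0.245). *Ace* is also expressed in endothelium, whose 2 markers had a summed FPKM of 3.19 to 8.97 in controls and 8.42 to 10.9 in cKO, and their part in the result was not tested.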

How the data were processed

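Whole-testis RNA of 4 control and 4 cKO mice was sequenced as paired ends by a company whose software made the values. The authors deposited FPKM values per gene and a gene length, on GRCm38 per the labels, and tested differential expression with a count-based method. The aligner and counting tool are not given in the sources used here. FPKM multiplied by length gave whole fragments for 100% of values (tolerance 0.02). Here log2(FPKM + 0.1) was tested with limma 3.58.1 in R 4.3.3 (eBayes with trend), over protein-coding genes with a mean above 1 FPKM in both groups, as unpaired groups. The members and lists were chosen with earlier results of these data known. Every testis member, and every other member with a mean above 1 FPKM or an unadjusted p below 0.05, was given with its values in each library. The procedure was also run on simulated fragments. No simulated library was set apart as control replicate 1 is, so that run does not speak to its effect. Gene positions were compared with GENCODE vM21: 51 of 56 members had the same start and end and all 56 overlapped on the same strand. The longest stretch shared exactly by transcripts of any 2 tested members was 24 bases. Intervals and floors cover counting error only where they come from fragments. No replicates were merged, as even the least different pair had a chi-square of 4.61 per gene, where sampling noise gives about 1. Figures were drawn with matplotlib 3.10.9.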

Additional observations from a re-analysis of the deposited data

Results flagged for a closer look

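In 36 groups of 4 libraries (18 members with a mean of at least 1 FPKM, 2 groups each), 3 libraries lay far from the other 3 of their group by Dixon's criterion, where chance gives about 1 in 20 groups, or 1.8 of 36. Control replicate 4 had 47.6 FPKM of *Prss35* against 33.6 to 35.7 FPKM in the other controls. Control replicate 1 had 4.99 FPKM of *Prss48*, where the next control had 4.12 FPKM. The cKO replicate 1 had 2.91 FPKM of *Prss46*, where the next cKO library had 1.81 FPKM.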

How the results depend on the processing

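No member was called differentially expressed under any of the 11 other settings or with any library left out (0 to 0 members). The 4 members at an unadjusted p below 0.05 were 6 with array weights, 6 of 27 tested with a mean above 0.1 FPKM, 2 with all biotypes tested, 2 by voom on recovered fragments, 1 of 7 tested with a mean above 5 FPKM, and 1 to 4 with a library left out. The 2 members whose groups did not overlap were 1 by voom, 0 with a mean above 5 FPKM and 2 to 4 with a library left out. The median log2 fold change of testis members ran from -0.289 to -0.0829 and that of other members from 0.0725 to 0.170 with a library left out, and the latter was 0.0432 over 33 members with no filter. With array weights *Prss43* passed the adjusted threshold (log2 fold change -0.90), *Prss42* turned to -0.0279 and *Prss46* to -0.182. With a library left out, log2 fold changes ran from -0.0704 (cKO replicate 1) to 0.135 for *Prss42*, which was -0.0083 without control replicate 1, from -0.214 to 0.220 (control replicate 3) for *Prss41*, which was 0.0160 without cKO replicate 4, from -0.0193 (control replicate 4) to 0.157 for *Tmprss9* and from -0.433 to 0.0159 (control replicate 4) for *Prss47*. The cause was not tested. Counting these exceptions, 192 of 195 values of single members kept direction and side of the threshold across settings and 146 of 152 with a library left out.

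With a replicate block 0 members were called and 4 were at an unadjusted p below 0.05, and *Prss43* kept -0.82 (limma adjusted p = 0.121). Over all genes the block took the calls from 2 to 0 and the share at an unadjusted p below 0.05 from 10.9% to 14.6%. Deviations of same-numbered libraries correlated at 0.288, 0.131, 0.0757 and 0.406. Control replicates 1, 2 and 4 correlated best with the cKO library of their own number and control replicate 3 with cKO replicate 1. The labels do not say what a number stands for and 1 of the 4 correlations was under 0.1, so the libraries were not treated as pairs. Members with a mean below 1 FPKM had at most 55 fragments in a library, which limits what these data can show of them.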
